A study of Mus musculus with 16 samples.

Results

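The Notch pathway genes described here are 4 receptors (Notch1, Notch2, Notch3 and Notch4), 4 ligands (Jag1, Jag2, Dll1 and Dll4) and 2 target genes (Hes1 and Hey1), measured in the developing mouse epididymis on Affymetrix expression arrays. They were chosen by symbol alone, as all probe sets annotated to one of these names. That gave 10 of the 18193 genes named on the array and 19 of its 45037 probe sets other than controls. A probe set is a group of short probes that report on a stretch of a transcript, and no probe set of these genes was annotated to a further gene.

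Each epididymis array held RNA of the whole excised organ of wild-type CD-1 males, an outbred mouse stock. There were 3 arrays at each of 5 stages, namely gestational days 12, 14, 16 and 18 (gd12, gd14, gd16 and gd18; Theiler stages 20, 22, 24 and 26) and postnatal day 2 (pnd2; Theiler stage 27). No group carried a mutation, transgene or treatment. The RNA went through 2 rounds of amplification and was labelled with biotin. Replicates keep their label numbers, which run over the whole series, so gd12 holds replicates 13, 14 and 15, gd14 holds 10, 11 and 12, gd16 holds 7, 8 and 9, gd18 holds 4, 5 and 6, and pnd2 holds 1, 2 and 3. The labels of all gd12 and gd14 samples mark them as pooled, with a pool size of 3 of an unnamed unit, whereas the design text describes every sample as the paired organs of 1 animal with its own dam. The conflict could not be settled from the sources, and it touches every comparison with gd12 or gd14.

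Notch receptors are single-pass membrane proteins that are activated by ligands on a neighbouring cell. Ligand binding exposes the receptor to cleavage by an ADAM protease and then by gamma-secretase, and the freed intracellular domain joins the DNA-binding protein RBPJ and a Mastermind coactivator to switch on target genes. The best known targets are the Hes and Hey genes, which encode basic helix-loop-helix repressors. In blood vessels Dll4, Notch1 and Notch4 are known from endothelium and Notch3 from pericytes and smooth muscle. In the fetal testis the pathway is known for holding Leydig cell progenitors undifferentiated, and Sox9, a target in several tissues, is the defining transcription factor of Sertoli cells.

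The values are the deposited signals, on a linear scale, which the deposited table had already scaled to one trimmed mean on all arrays. Changes are differences of log2(signal + 16) between stage means, with 3 arrays at each stage. Their standard errors (SE) are the moderated errors of the limma fit, which pool the spread over all arrays fitted. They do not give the spread of a single stage. A fold is 2 raised to the size of that difference, and it understates the change of dim probe sets. All comparisons were fitted with limma on the 25960 probe sets that reached the median of their own array on 3 or more of the 15 arrays, and a probe set is called at a Benjamini-Hochberg adjusted p under 0.05 within its comparison. Of the 19 Notch probe sets, 13 entered the test, 5 for receptors, 6 for ligands and 2 for targets, and each of the 10 genes had at least 1. One array stood apart. On pnd2 replicate 3 the Gapdh control probe sets gave a 3' to 5' signal ratio of 63.2 and those of Actb a ratio of 80.7, against 4.33 to 7.18 and 2.40 to 4.14 on the other 14 arrays. On this array 28.7% of all tested probe sets lay at least 2-fold below the mean of pnd2 replicates 1 and 2 and 10.5% at least 2-fold above it. Results are therefore given with it (15 arrays) and without it (14 arrays). Its omission also changes comparisons that do not involve pnd2, because all stages share 1 estimate of the spread.

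The tissue was checked against marker genes. Adgrg2, a receptor made by the epithelium of efferent ducts and epididymis, had signals of 24.5, 81.2 and 517 at gd12 and of 12105, 10815 and 14557 at pnd2. The summed signal of the 12 duct epithelium markers that could be tested, of 14 listed, ran from 7585 to 9786 at gd12 and from 39220 to 41298 at pnd2, and Pax2 and Ret were too dim to test. Markers of other tissues were present at the earliest stage. The 6 germ cell markers summed to between 15905 and 24576 at gd12, to between 993 and 1649 at gd14 and to at most 360 later. The 8 testable markers of gonad supporting and interstitial cells, of 11 listed, summed to between 4718 and 8310 at gd12 and to between 1727 and 3070 at gd14. Later gonad sums lay at 1705 or below except for gd16 replicate 9, where the sum of 4831 came mostly from the steroidogenic markers Cyp17a1 and Star and from Inha, and Amh, Cyp11a1 and Insl3 were too dim to test. Other lists changed in the same first step as well: 3 of 7 smooth muscle markers, 4 of 6 macrophage markers and 1 of 5 arterial markers rose, and 5 of 12 duct epithelium markers rose. By the brightest probe set of each gene, 11% of all genes tested were called in that step, in either direction. Of 7 nephron markers only 2 could be tested and neither was called there. A change in such whole-organ RNA cannot tell fewer cells of a type from less RNA per cell.

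Across the stages the member with the largest change was Hey1, which fell between gd12 and gd14 and stayed lower than at gd12 at gd18 and pnd2. Notch3 rose between gd12 and gd14, Jag1 was higher at gd18 than at gd12, and Hes1 was lower at pnd2 than at gd12. From gd14 onwards no consecutive step was called for any of the 13 probe sets. Between gd12 and gd14 the calls were 2 of 13 Notch probe sets with 15 arrays, beside 8.72% of all tested probe sets, and 4 of 13 with 14 arrays, beside 23.8% of all. Between gd14 and gd16 there were 0 calls by limma, beside 0.0616% of all, with 1 probe set at an unadjusted p under 0.05. Between gd16 and gd18 there were 0 calls, beside 0.143% of all, with 0 at an unadjusted p under 0.05. Between gd18 and pnd2 there were 0 calls, beside 0.559% of all, with 3 at an unadjusted p under 0.05. Without pnd2 replicate 3 the counts of these later 3 steps were again 0, while the background was 0.732%, 1.01% and 1.75%. The longer span from gd12 to gd18 gave 2 calls of 13, beside 16.5% of all, and 5 of 13 with 14 arrays, beside 33.3%. The span from gd12 to pnd2 gave 2 calls of 13 with either set of arrays, beside 21.1% of all with 15 arrays and 28.1% with 14. A count of 2 of 13 is 15.4%, above the background of 8.72% between gd12 and gd14 and below that of both longer spans. With 14 arrays the counts of 4 and 5 are 30.8% and 38.5%, above their backgrounds of 23.8% and 33.3%. With so few probe sets the counts set no difference between the Notch genes and the rest of the array.

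The median log2 difference of the 13 probe sets was 0.0024 between gd12 and gd14, where that of all tested probe sets was 0.066. It was 0.19 from gd12 to gd18, against 0.041 for all. From gd18 to pnd2 it was -0.61 with 15 arrays and -0.24 with 14, against -0.16 and -0.035 for all probe sets, so that the apparent drop at pnd2 was smaller by more than 1.5 times once the single array was left out.

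**Figure D1:**
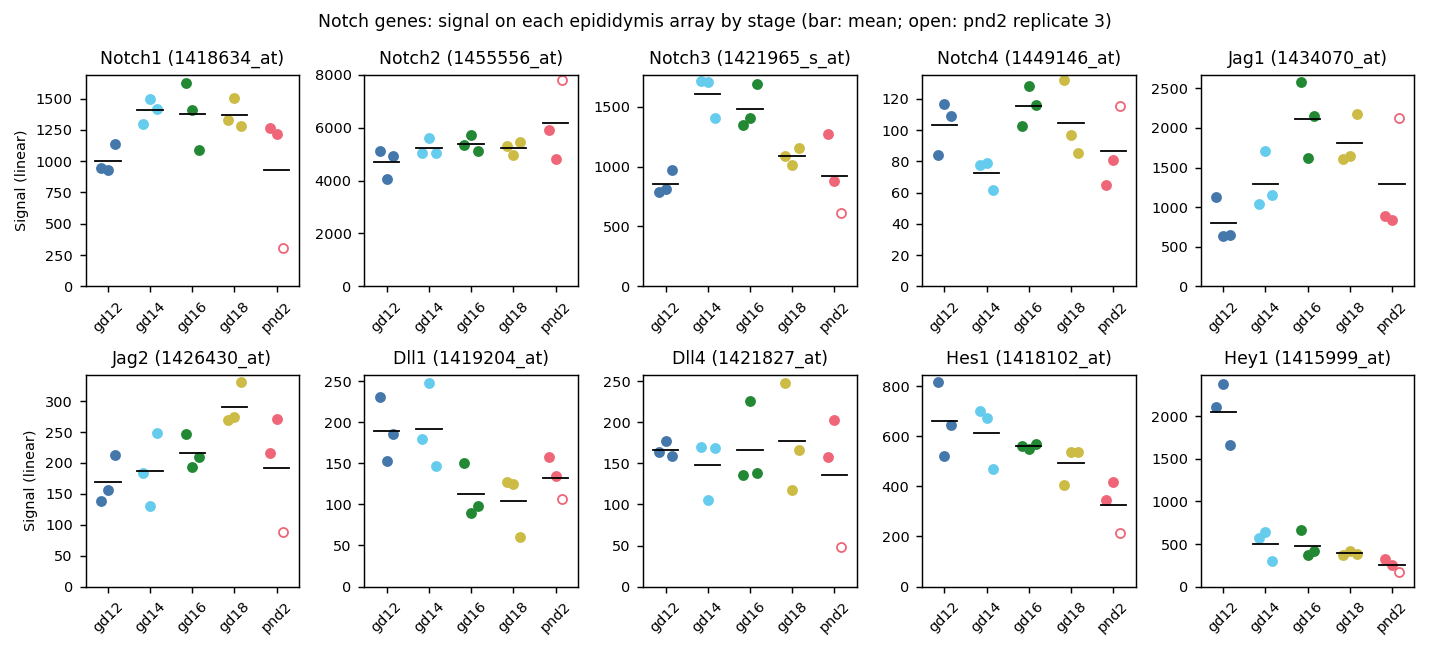
Signal (linear, axes from 0) of the brightest tested probe set of each Notch gene on each of the 15 epididymis arrays, by stage, with a bar at the stage mean and pnd2 replicate 3 as an open circle. Hey1 is highest on the 3 gd12 arrays (1658 to 2378), and the open circle departs from the other pnd2 arrays upwards for Jag1 and Notch2 and downwards for Notch1.

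Among the receptors, Notch3, the receptor of vascular mural cells, was the only one called with 15 arrays. Its probe set 1421965_s_at had signals of 789, 809 and 968 at gd12 and of 1714, 1703 and 1405 at gd14. It then measured 1343, 1405 and 1689 at gd16, 1092, 1012 and 1159 at gd18, and 1274, 877 and 608 at pnd2. Every gd14 array lay above every gd12 array, as 21.6% of all tested probe sets did. The pnd2 arrays ran from below the gd12 range to above it and stayed below every gd14 array. Notch3 rose by 0.90 ± 0.23 on the log2 scale between gd12 and gd14, 1.86-fold, with a limma adjusted p of 0.0233 with 15 arrays and 0.000547 with 14. The call was lost when gd12 replicate 13 (adjusted p = 0.0727), gd12 replicate 14 (0.0869), gd14 replicate 10 (0.0919) or gd14 replicate 11 (0.0910) was left out, each with pnd2 replicate 3 kept in.

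In order of stage means, Notch3 was highest at gd14 (1607 ± 175, SD, n = 3), then gd16 (1479 ± 184), gd18 (1087 ± 73.6), pnd2 (920 ± 335) and gd12 (855 ± 98.3). The gd18 arrays lay below the gd16 arrays, as 9.93% of tested probe sets did, at a log2 difference of -0.43 ± 0.23 with adjusted p = 0.869, and no pair of neighbouring stages in that order passed the test. The second Notch3 probe set, 1421964_at, was too dim to test, at 6.11 to 127 over the 15 arrays. Its gd12 signals of 58.3, 72.1 and 38.7 also lay below its gd14 signals of 113, 94.9 and 96.1.

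Markers of mural cells and of other tissue moved alongside Notch3. The 6 testable pericyte and vascular mural markers, of 7 listed, with Anpep too dim, summed to between 2728 and 4460 at gd12 and between 5548 and 6709 at gd14. Of the 6, 1 rose with 15 arrays and 4 with 14, where 11% and 28.2% of all genes were called in either direction. All 6 mesenchyme markers rose over the same step, from sums of 31963 to 42264 up to sums of 91955 to 102011. The summed mural signal went on to between 8087 and 9778 at gd18, where Notch3 had its next to lowest fetal level. The part of these cell types in the Notch3 result was not tested.

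The upstream promoter window of Notch3 is shown beside that of Jag1 because these are the 2 members with a rise called in a stage comparison with 15 arrays. Both are RefSeq sequences of GRCm38.p6, 250 bases ending just before the transcript start and read 5' to 3' on the gene's strand, which is the minus strand for both. Notch3 lies at chr17:32166891-32167140 and Jag1 at chr2:137116521-137116770. Capitals mark 2 kinds of site that HES repressors are known to bind, the class C site CACGCG and the N-box CACNAG, searched on both strands and not overlapping here.
Notch3: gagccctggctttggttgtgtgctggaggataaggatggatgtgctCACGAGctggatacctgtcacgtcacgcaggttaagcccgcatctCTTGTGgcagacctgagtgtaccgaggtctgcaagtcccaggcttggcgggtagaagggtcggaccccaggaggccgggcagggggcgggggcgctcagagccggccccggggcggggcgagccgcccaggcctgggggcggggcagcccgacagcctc
Jag1: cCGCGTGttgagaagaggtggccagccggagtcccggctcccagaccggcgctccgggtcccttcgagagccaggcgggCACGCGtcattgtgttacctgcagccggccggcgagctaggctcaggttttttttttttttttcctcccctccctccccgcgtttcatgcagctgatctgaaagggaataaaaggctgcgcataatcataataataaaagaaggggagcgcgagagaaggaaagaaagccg
In the Notch3 window there were 2 N-boxes, at 204 to 199 and 159 to 154 bases upstream, and in the Jag1 window there were 2 class C sites, at 249 to 244 and 171 to 166 bases upstream. Among all 32817 promoter windows of this length, 36.7% held an N-box and 7.61% a class C site. The reference table held windows for 8 of the 10 members, with 2 for Dll1, and 4 of these 9 windows held each motif. The 9 windows had 56.0% to 87.2% G and C bases, against a median of 52.4% over all windows. The shares over all windows were not matched for base makeup, so they set no excess or lack of a motif in the members. The RBPJ core GTGGGAA was in 0 of the 9 and in 5.42% of all windows, and the E-box CACGTG in 0 of the 9 and in 6.02% of all. Hes1 and Hey1 are not among the windows matched. A match gives the letters only.

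Notch1, a receptor used in many progenitor tissues, had signals of 949, 927 and 1139 at gd12 on its brighter probe set, 1418634_at. They were 1301, 1500 and 1416 at gd14, 1627, 1413 and 1091 at gd16, and 1329, 1503 and 1280 at gd18. At pnd2 replicates 1 and 2 measured 1262 and 1219, while replicate 3 measured 305, which is 3.91-fold below their mean. The gd12 arrays lay below all gd14 and all gd18 arrays, as they did for 21.6% and 22.6% of all tested probe sets. The gd14 difference was 0.48 ± 0.39 on the log2 scale with 15 arrays (adjusted p = 0.530) and 0.48 ± 0.15 with 14 (adjusted p = 0.0249). The gd18 difference from gd12 was 0.44 ± 0.15 with 14 arrays (adjusted p = 0.0274) and was not called with 15 (adjusted p = 0.507). The dimmer probe set 1418633_at, at 104 to 228 on all arrays, showed no such step, with a log2 difference of -0.04 ± 0.30 between gd12 and gd14, and the 2 probe sets correlated at r = 0.083 over the 14 arrays.

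Notch2 had a signal on 1455556_at between 4059 and 5896 on the 14 arrays and 7820 on pnd2 replicate 3. Its stage means were 4699 ± 562, 5216 ± 328, 5394 ± 302, 5237 ± 243 and 6175 ± 1525 (SD, n = 3) in order of age, and the mean of pnd2 without replicate 3 was 5352. No comparison of Notch2 was called with either set of arrays. The interval of its gd14 minus gd12 difference, -0.20 to 0.51 on the log2 scale (95% confidence), still allows a modest change. Probe set 1451889_at was too dim to test, at 13.1 to 163.

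Notch4, a receptor known mainly from endothelium, was near the limit of measurement. Its 1 tested probe set, 1449146_at, reached the array median on 4 of 15 arrays and ran from 61.7 to 132. The gd14 signals of 77.4, 78.8 and 61.7 all lay below those of gd12 (84.0, 117 and 109) and of gd16 (103, 128 and 116), at adjusted p = 0.428 and 0.997. Over all tested probe sets, 17% lay wholly below gd12 at gd14 and 10.4% lay wholly above gd14 at gd16. The other Notch4 probe sets, 1456263_at and 1436901_at, ran from 19.1 to 87.8 and from 5.92 to 87.3 and were not tested. The 14 endothelial markers fixed for comparison, of which Tie1 was too dim, had sums of 8112 to 9582 at gd12 and 9080 to 10060 at gd14. In that step limma called 0 of the 13 tested, beside 11% of all genes, with 0 at an unadjusted p under 0.05.

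**Figure D2:**
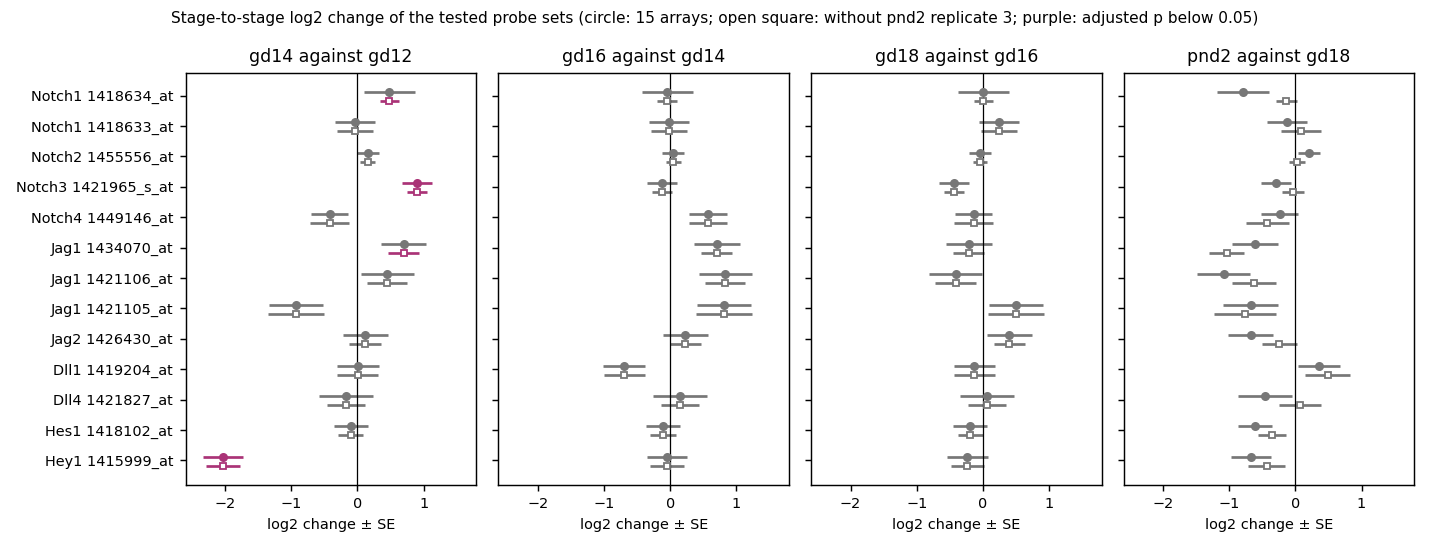
Log2 change with SE of each of the 13 tested probe sets over the 4 consecutive stage steps, from 15 arrays (circles) and from 14 arrays without pnd2 replicate 3 (open squares), purple where the adjusted p is below 0.05. Only the gd14 against gd12 panel holds purple symbols, for Hey1 and Notch3 in both fits and for Notch1 1418634_at and Jag1 1434070_at with 14 arrays.

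Among the ligands, Jag1, which is known to signal to Notch in vessel walls and ducts, was the only one called with 15 arrays. On its brightest probe set, 1434070_at, signals were 1129, 634 and 645 at gd12 and 1034, 1708 and 1149 at gd14. They were 2577, 1623 and 2147 at gd16, 1611, 1643 and 2181 at gd18, and 893, 837 and 2131 at pnd2. The gd18 arrays lay above all gd12 arrays, as 22.6% of all tested probe sets did. The gd16 arrays did so as well, but gd16 was not compared with gd12, so that separation has neither a test nor a share beside it. At pnd2 replicates 1 and 2 were back in the gd12 range while replicate 3 was not. Jag1 rose by 1.20 ± 0.34 on the log2 scale from gd12 to gd18, 2.29-fold, with a limma adjusted p of 0.0269 with 15 arrays and 0.000922 with 14. The call was lost with each array centred on its median (adjusted p = 0.0691) and without gd12 replicate 14 (0.107), gd12 replicate 15 (0.0953), gd18 replicate 4 (0.0543), gd18 replicate 5 (0.0592) or gd18 replicate 6 (0.107). With 14 arrays the gd14 step was called too, at 0.70 ± 0.23 (adjusted p = 0.0397; 0.250 with 15 arrays). The later drop from gd18 to pnd2 was -1.04 ± 0.26 with 14 arrays, 2.06-fold, and missed the threshold at adjusted p = 0.0550.

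By stage mean Jag1 1434070_at was highest at gd16 (2116 ± 478, SD, n = 3), then gd18 (1812 ± 320), gd14 (1297 ± 360), pnd2 (1287 ± 732, or 865 without replicate 3) and gd12 (803 ± 282). Neighbouring steps in age were not called with 15 arrays. The second probe set, 1421106_at, followed the same course at lower signal, with r = 0.918 over the 14 arrays. It measured 200, 92.4 and 165 at gd12, 513, 253 and 415 at gd16, 252, 234 and 372 at gd18, and 179, 172 and 57.7 at pnd2. Its gd18 arrays lay above its gd12 arrays, as 22.6% of all tested probe sets did. The difference was 0.87 ± 0.40 (adjusted p = 0.166) with 15 arrays and 0.87 ± 0.30 (adjusted p = 0.0360) with 14. The third, 1421105_at, reached the array median on 4 of 15 arrays, ran from 15.3 to 191 and correlated with the first at r = 0.257.

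The 2 brighter Jag1 probe sets parted on a single array. On pnd2 replicate 3, 1434070_at lay 2.44-fold above the mean of pnd2 replicates 1 and 2 and 1421106_at lay 2.60-fold below it, whereas on the other 14 arrays they moved together. This is the array with the high 3' to 5' control ratios given above. The positions of the probes were not analysed here, and the part of those ratios in the Jag1 values was not tested.

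**Figure D3:**
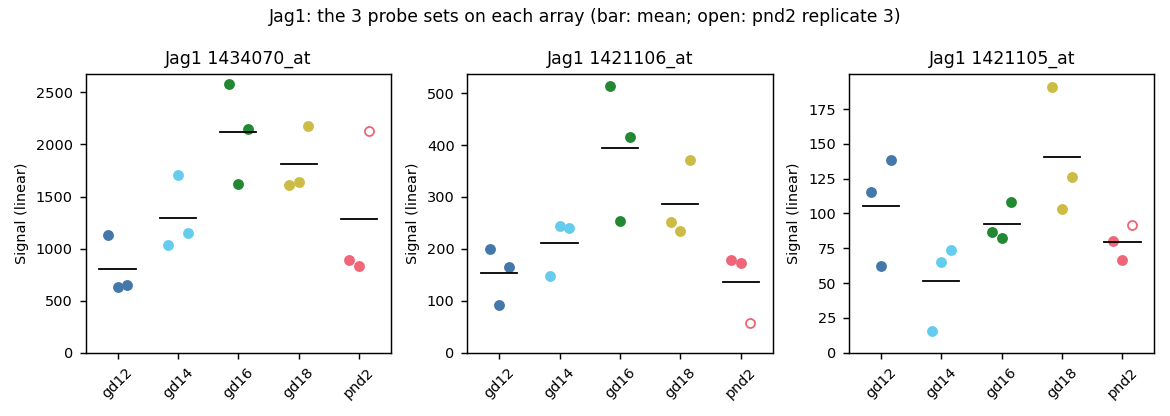
Signal (linear, axes from 0) of the 3 Jag1 probe sets on each array by stage, with a bar at the stage mean and pnd2 replicate 3 as an open circle. The first and second panels show the same course with their highest means at gd16 (2116 and 394), except that the open circle is the highest pnd2 array in the first (2131) and the lowest in the second (57.7).

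Jag2, the other Jagged ligand, measured 138, 156 and 213 at gd12 and 269, 274 and 330 at gd18 on 1426430_at, with no overlap between these stages, as 22.6% of all tested probe sets were wholly higher at gd18. It measured 184, 130 and 248 at gd14, 248, 193 and 210 at gd16, and 216, 272 and 88.2 at pnd2. The gd18 difference from gd12 was 0.75 ± 0.34 (1.68-fold), with adjusted p = 0.161 with 15 arrays, and 0.75 ± 0.24 with adjusted p = 0.0236 with 14. Probe set 1426431_at did not reach the median on any array.

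Dll1, a Delta ligand that activates Notch on neighbouring progenitor cells, had lower signals at gd18 than at gd12. It measured 231, 152 and 186 at gd12 and 128, 125 and 59.8 at gd18 on 1419204_at. Every gd18 array lay below every gd12 array, as 20.2% of all tested probe sets did. The difference of -0.82 ± 0.32 (1.76-fold) was not called, with adjusted p = 0.0951 with 15 arrays and 0.0503 with 14. Between them, the gd14 signals were 180, 248 and 147, the gd16 signals 150, 89.1 and 98.0, and the pnd2 signals 157, 135 and 106.

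Dll4, the ligand of endothelial tip cells and arteries, showed no stage course. On 1421827_at it ran from 105 to 248 on the 14 arrays and measured 48.1 on pnd2 replicate 3, and the largest of its 6 stage differences was -0.46 ± 0.41, for pnd2 against gd18, with adjusted p = 0.494. Without pnd2 replicate 3 the sign of that difference turned, to 0.07 ± 0.32 with adjusted p = 0.939. The interval of its gd18 minus gd12 difference was -0.85 to 0.90 on the log2 scale (95% confidence). Probe set 1421826_at was too dim to test, at 5.87 to 134.

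Of the targets, Hey1 fell steeply between the first 2 stages. Its only probe set, 1415999_at, had signals of 2108, 2378 and 1658 at gd12 and of 567, 641 and 305 at gd14. It then measured 663, 368 and 413 at gd16, 377, 422 and 386 at gd18, and 320, 258 and 167 at pnd2. The gd12 arrays lay above all 12 later arrays (17% of all tested probe sets were wholly lower at gd14 than at gd12), and the lowest gd12 array was 2.50-fold above the highest later one. Hey1 fell by 2.04 ± 0.30 on the log2 scale from gd12 to gd14, 4.10-fold, with a limma adjusted p of 0.000732 with 15 arrays and 3.34e-05 with 14. Against gd12 it was 4.97-fold lower at gd18 (adjusted p = 0.000111) and 7.96-fold lower at pnd2 (adjusted p = 8.87e-06), or 6.72-fold lower at pnd2 with 14 arrays (adjusted p = 3.02e-06). These 3 calls held in all 27 alternatives tried, including each array left out in turn.

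After gd14 the Hey1 levels could not be told apart step by step. The stage means were 505 ± 177 at gd14, 482 ± 159 at gd16, 395 ± 23.7 at gd18 and 249 ± 77.1 at pnd2 (SD, n = 3). All 3 pnd2 arrays lay below all gd18 arrays, as 13.8% of tested probe sets did, at -0.68 ± 0.30 with adjusted p = 0.230, and at -0.43 ± 0.28 with adjusted p = 0.473 with 14 arrays.

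Germ cell and gonad markers fell in the same step as Hey1. All 6 germ cell markers and 4 of the 8 testable gonad markers fell between gd12 and gd14 (5 of the 8 with 14 arrays). Their summed signals separate gd12 from gd14 as Hey1 does. The gonad list did not move as one, either in that step or later. Of its 8 testable markers 0 were called higher at gd14. Yet Cyp17a1, a steroidogenic enzyme, measured 15.8, 130.5 and 111 at gd12 and 949, 302 and 218 at gd14. On gd16 replicate 9, where the gonad sum was 4831, Cyp17a1 measured 2211. On the same array Sox9 was at 148, Dhh, a Sertoli cell ligand, at 97.8 and Dmrt1, a factor of Sertoli and germ cells, at 24.6. At gd12 those 3 genes had measured 874 to 1455, 932.5 to 3161 and 360 to 1027. Hey1 on that array was 413, between the other gd16 arrays. The germ cell sum on all gd16 arrays was at most 353. Endothelium, a known site of Hey1, had summed signals on its general list that overlapped between gd12 and gd14. The summed signals of the 5 testable arterial markers, of 6 listed, did not overlap and were higher at gd14. These sums ran from 6315 to 8721 at gd12 and from 10803 to 13550 at gd14. Within them Efnb2, Nrp1 and Unc5b were higher at gd14 and Sox17 overlapped. Gja4 measured 284, 308 and 314 at gd12 and 205, 250 and 285 at gd14. With all arrays 1 of the 5 arterial markers was called higher and 0 lower in that step, and 3 were called higher without pnd2 replicate 3. The part of gonad, germ cell and endothelial RNA in the Hey1 result was not tested.

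**Figure D4:**
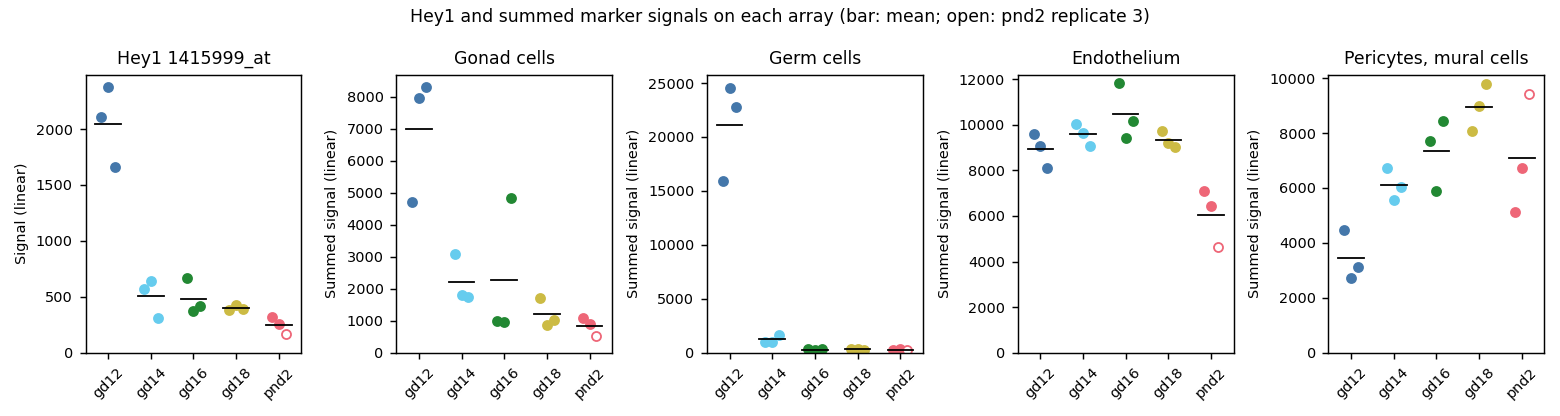
Hey1 signal and the summed signals of testable markers for gonad cells, germ cells, endothelium, and pericytes and mural cells on each array by stage (linear, axes from 0; bar, stage mean; open circle, pnd2 replicate 3). Hey1 and the germ cell sum are high on the 3 gd12 arrays only. The gonad sum is also high on 1 gd16 array (4831, with Cyp17a1 at 2211 and Sox9 at 148). The endothelium sum, which is of the general list and not the arterial one, changes little between gd12 and gd14.

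Hes1, a repressor that is a direct Notch target in many tissues, was called only over the full span. Its probe set 1418102_at had signals of 815, 522 and 643 at gd12, 699, 673 and 468 at gd14, 560, 550 and 570 at gd16, 405, 538 and 536 at gd18, and 345, 416 and 213 at pnd2. The pnd2 arrays lay below all gd12 arrays, as 18.4% of tested probe sets did. Each consecutive pair of stages overlapped except gd16 and gd18, where gd18 was wholly lower, as for 9.93% of tested probe sets. Hes1 was lower at pnd2 than at gd12 by 1.01 ± 0.26 on the log2 scale, 2.02-fold, with a limma adjusted p of 0.0115 with 15 arrays. With 14 arrays the difference was -0.75 ± 0.21, 1.68-fold, with adjusted p = 0.0153. The call was lost without gd12 replicate 13 (adjusted p = 0.0524) and in a fit to the 6 arrays compared (adjusted p = 0.142). The intervening steps from gd12 to gd18 amounted to -0.40 ± 0.26 (adjusted p = 0.341).

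The moderated F test over the 5 stages called 4 of the 13 Notch probe sets, beside 21% of all, namely those of Hey1 (adjusted p = 8.49e-05), Notch3 1421965_s_at (0.0229), Jag1 1434070_at (0.0436) and Hes1 (0.0491). With 14 arrays it also called 4, beside 38.7% of all, with Jag1 1421106_at (0.0194) in place of Hes1 (0.0609). The Hey1 call held in each of the 15 fits that left out 1 array. The Notch3 call was lost in 5 of them, without gd12 replicate 13 or 14, gd14 replicate 10 or 11, or gd16 replicate 9, with adjusted p up to 0.0623. The Jag1 call was lost in 10 of them, namely without gd12 replicate 14 or 15, gd14 replicate 10 or 12, or any 1 gd16 or gd18 array, with adjusted p up to 0.138. The Hes1 call was lost in 13 of them, all but those without gd14 replicate 12 or pnd2 replicate 2, with adjusted p up to 0.0894.

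Among the members themselves, the strongest correlation over the 14 arrays was that of Jag2 with Dll1 (r = -0.700). The next by size were those of Hey1 with Jag2 (r = -0.627), Notch1 (r = -0.625) and Hes1 (r = 0.615). These correlations describe arrays that share their stage course and their whole-organ makeup. By the same measure, the genes most like each member were named by rule, as the 3 with the highest r over 14 arrays. For Hey1 these were Cpa1 (0.967), Tmem183a (0.962) and Cenpe (0.957), whose r over 15 arrays was 0.948, 0.886 and 0.822. For Hes1 the closest was Plvap, a protein of endothelial fenestrae, at 0.933 over 14 arrays and 0.968 over 15, followed by Mterf2 (0.926) and Polb (0.881). Over 15 arrays Mterf2 and Polb were at only 0.326 and 0.563. For Jag1 they were Tbl1xr1 (0.918), Ubtd2 (0.914) and Sulf2 (0.909), and for Notch3 Hykk (0.908), Ppp2r5a (0.907) and Mcc (0.900). Their r over 15 arrays was 0.892, 0.868 and 0.916 for Jag1 and 0.740, 0.768 and 0.760 for Notch3. For Notch1 the closest, Miga1, had r = 0.915 over 14 arrays and -0.612 over 15, so that 1 array turned its sign, while Lrig2 (0.891) and Lrp1 (0.877) kept it, at 0.979 and 0.873. For Notch2 they were Mllt6 (0.868), Tbc1d1 (0.868) and Steap2 (0.863), with the first 2 at -0.495 and -0.020 over 15 arrays. The highest r was 0.799 (Malt1) for Notch4, 0.912 (Erg28) for Jag2, 0.886 (Gss) for Dll1 and 0.781 (Gm1976) for Dll4. Over 15 arrays these were 0.390, 0.837, 0.885 and 0.579.

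Of 69 other Notch pathway genes listed by role, 57 could be tested by their brightest probe set. Between gd12 and gd14, 2 of the 57 were called, beside 11% of the brightest probe sets of all 12231 genes tested, and 19 with 14 arrays, beside 28.2%. From gd12 to gd18 it was 15 of 57, beside 20.7% of all genes, and 28 with 14 arrays, beside 39.2%. These 15 were 11 higher and 4 lower, where 11.6% of all genes were called higher and 9.12% lower. From gd12 to pnd2 it was 11 of 57, beside 25.1% of all genes, and 25 with 14 arrays, beside 33.8%. These 11 were 6 higher and 5 lower, where 13.5% and 11.7% of all genes were. In a fit to the 6 arrays compared, 7 of these 11 were lost (Dlk1, Kat2a, Kat2b, Dtx2, Hes6, Nrarp and Gata3), with adjusted p from 0.0517 to 0.245. Of the 29 calls in single comparisons, 15 held in every fit that left out 1 array.

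Ligands and related membrane proteins held the largest rises. Dlk1, a Delta-like protein without the Notch-activating domain, had signals of 507, 1208 and 1238 at gd12 and 5387, 5094 and 6493 at gd14, a 6.07-fold rise (2.60 ± 0.31 on the log2 scale, adjusted p = 0.000135). It stood 9.12-fold above gd12 at gd18 and 3.76-fold at pnd2, or 4.71-fold with 14 arrays. Dner, a Notch-binding protein best known from neurons, measured 123, 60.5 and 57.8 at gd12, 259, 310 and 319 at gd18, and 895, 670 and 839 at pnd2. Dner rose 3.37-fold from gd12 to gd18 (adjusted p = 0.00168) and stood 8.80-fold above gd12 at pnd2 (adjusted p = 9.53e-06). These calls of Dlk1 and Dner held without any 1 array.

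Of the 6 testable genes of the nuclear complex, 2 were called at gd18 (Rbpj and Snw1) and 2 at pnd2 (Kat2b and Kat2a), each against gd12. Of all genes, 20.7% and 25.1% were called in these 2 comparisons. Neurl1b, a ubiquitin ligase that acts on ligands, was the 1 of 5 endocytosis genes called, 3.75-fold higher at gd18 than at gd12 (adjusted p = 0.0107). Rbpj, the DNA-binding partner of all Notch receptors, had signals of 3424, 3207 and 3031 at gd12 and 5983, 5653 and 5149 at gd18, a 1.73-fold rise (0.79 ± 0.19 on the log2 scale, adjusted p = 0.00920; 4.10e-05 with 14 arrays). On pnd2 replicate 3 Rbpj measured 3124, against 5987 and 4620 on the other pnd2 arrays. Snw1, a cofactor of the nuclear complex, was 1.53-fold lower at gd18 (adjusted p = 0.0138), which was lost without gd12 replicate 15 or gd18 replicate 6 (adjusted p up to 0.0720). The acetyltransferases Kat2b and Kat2a were 2.19-fold higher and 2.19-fold lower at pnd2 than at gd12, and with 14 arrays 1.46-fold higher and 1.53-fold lower. The Kat2a call was lost without gd12 replicate 14 or 15 and the Kat2b call without any 1 gd12 array, with adjusted p up to 0.0830 and 0.0960.

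With 15 arrays limma called 0 of the 5 glycosylation genes and 0 of the 7 testable cleavage genes in every stage comparison and in the F test. At an unadjusted p under 0.05 there were at most 2 in either group in any of these. Of all genes, 11%, 20.7% and 25.1% were called at gd14, gd18 and pnd2 against gd12. With groups of 5 and 7 genes the counts of 0 set no difference from the rest of the array. With 14 arrays the F test called 3 of the 5 and 3 of the 7, beside 38.7% of all tested probe sets. Single comparisons with 14 arrays also gave calls in both groups, such as Pofut1, which fucosylates the receptors (1.45-fold higher at gd14 than at gd12, adjusted p = 0.0227), and Adam10, the first protease (1.32-fold lower at gd18 than at gd12, adjusted p = 0.00734). Among 10 testable corepressors, Tle4 was 2.09-fold lower at gd18 (adjusted p = 0.0216) and Tle2 2.69-fold lower at pnd2 (adjusted p = 0.00211) than at gd12. The Tle4 call was lost without gd12 replicate 14 or any 1 gd18 array, with adjusted p up to 0.105.

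Of the 12 testable genes of turnover and trafficking, 5 were higher and 1 was lower at gd18 than at gd12, beside the 20.7% of all genes called, and 7 were higher and 2 lower with 14 arrays. Numbl, a paralogue of the Notch inhibitor Numb, was 2.49-fold higher (adjusted p = 0.0286), Dtx4 2.36-fold higher (adjusted p = 0.0106) and Dtx1 2.19-fold higher (adjusted p = 0.0477), the last 2 being Deltex proteins that bind the receptor. Fbxw7, the ubiquitin ligase that removes the active receptor domain, was 1.66-fold lower (adjusted p = 0.0143). The Dtx4 call held without any 1 array. The Numbl call was lost without gd12 replicate 15 or gd18 replicate 5 or 6, the Fbxw7 call without gd12 replicate 13 or 14 or gd18 replicate 6, and the Dtx1 call without any 1 array of gd12 to gd18, with adjusted p up to 0.116, 0.0750 and 0.149. At pnd2 Dtx3l was 2.96-fold higher (adjusted p = 0.000523) and Dtx2 2.61-fold lower than at gd12 (adjusted p = 0.0419), and Dtx2 was 1.68-fold lower and not called with 14 arrays (adjusted p = 0.0851). The Dtx2 call was lost in 11 of the 15 fits that left out 1 array, those without any 1 gd12, gd14 or gd18 array, gd16 replicate 7 or pnd2 replicate 3.

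Other targets included genes that also served as markers here. Sox9, which is also in the gonad list, fell 3.19-fold from gd12 to gd14 (adjusted p = 0.00546), from 1455, 874 and 1044 to 338, 334 and 329. Gata3, a duct epithelium factor that is also in the duct list, was 3.32-fold higher at gd18 (adjusted p = 0.0153) and 4.74-fold higher at pnd2 (adjusted p = 0.00250) than at gd12, and its gd18 call was lost without gd18 replicate 5 (adjusted p = 0.0551). Its gd12 signals were 115, 85.8 and 12.9. Without the last of these, gd12 replicate 15, Gata3 was 2.09-fold higher at gd18 (adjusted p = 0.0387) and 2.99-fold higher at pnd2 (adjusted p = 0.00389), and with a constant of 64 in place of 16 it was 3.10-fold higher at pnd2. Hes6 was 1.76-fold higher at gd18 (adjusted p = 0.0426) and 2.04-fold higher at pnd2 (adjusted p = 0.0110). The gd18 call of Hes6 was lost in 9 of the 15 fits that left out 1 array, those without gd12 replicate 13 or 14, gd16 replicate 7, or any 1 gd14 or gd18 array. Hey2 and Heyl, the paralogues of Hey1, were not called in any comparison of stages, and Heyl measured 117, 152 and 205 at gd12 and 170, 259 and 154 at gd14.

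Nrarp, a feedback inhibitor that Notch itself induces, was the 1 other pathway gene called between gd18 and pnd2 with 15 arrays, and Tle1 (1.56-fold lower, adjusted p = 0.0196) joined it with 14. It had signals of 706, 698 and 797 at gd12, 701, 553 and 587 at gd14, 783, 1071 and 687 at gd16, 916, 930 and 988 at gd18, and 472, 434 and 518 at pnd2. The gd18 arrays lay above all pnd2 arrays, as for 13.8% of tested probe sets, and pnd2 replicate 3 lay above the other pnd2 arrays. Nrarp fell 1.96-fold in that step (0.97 ± 0.19 lower on the log2 scale, adjusted p = 0.0392; 0.0110 with 14 arrays) and was 1.53-fold lower at pnd2 than at gd12 (adjusted p = 0.0326). The first call was lost in 10 of the 15 fits that left out 1 array (without gd12 replicate 14 or 15, gd16 replicate 7 or 9, or any 1 gd14 or gd18 array) and the other in 5 (without any 1 gd12 array or pnd2 replicate 1 or 2), with adjusted p up to 0.148 and 0.106. Both were also lost under quantile normalization, under median centring and without the filter. In a fit to the 6 arrays compared they were lost as well, with adjusted p = 0.590 and 0.213.

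**Figure D5:**
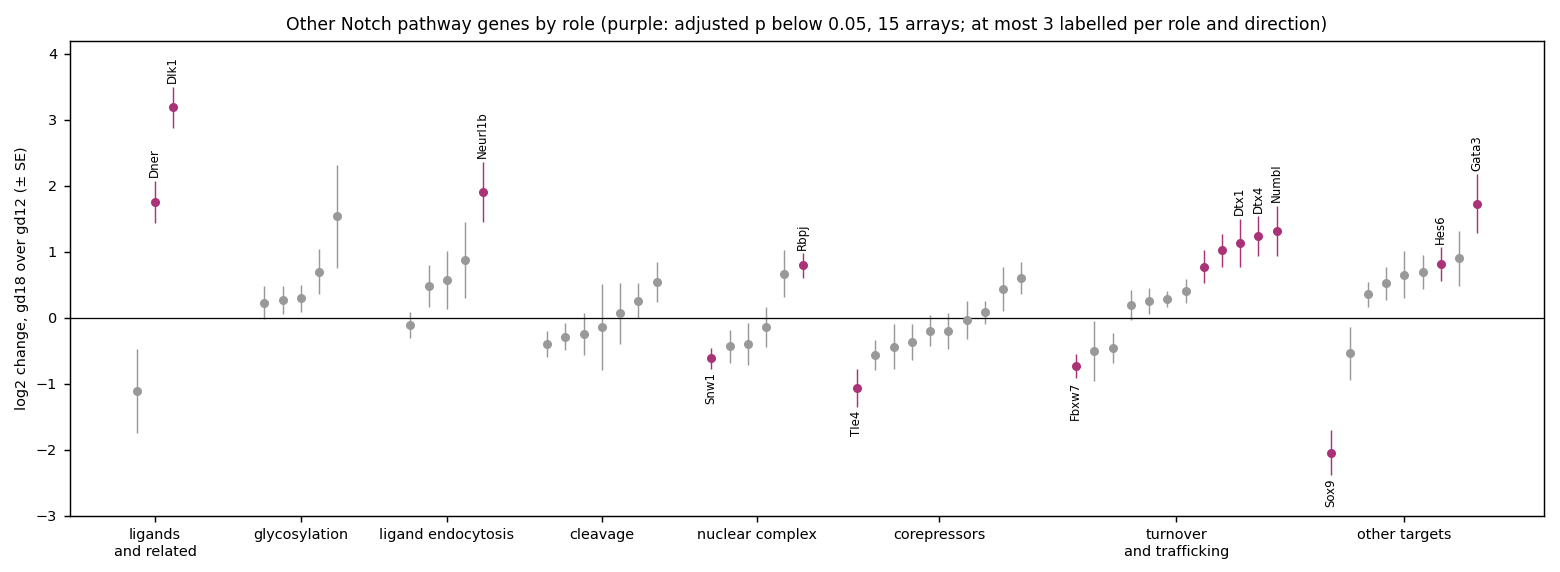
Log2 change with SE from gd12 to gd18 of the 57 testable other Notch pathway genes, grouped by role and ordered by change within a role (15 arrays; purple, adjusted p below 0.05, at most 3 labelled per role and direction). The 15 purple genes include 5 higher and 1 lower in turnover and trafficking, while glycosylation and cleavage hold none. Of all genes tested, 20.7% were called in this comparison.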

How the data were processed

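RNA of 15 whole-epididymis samples and 1 newborn pool was measured on Affymetrix arrays. The deposited table holds 1 linear signal intensity for each probe set of each array, which the authors made with GCOS, the Affymetrix scanner software, per the submitters' processing notes. The sources used here give neither its version nor its signal algorithm. A single scaling per array leaves the spread of each array as it was, and 2 rounds of amplification favour the 3' ends of transcripts.

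Probe sets were named from the platform's gene annotation. Intensities were taken as log2(signal + 16), and a probe set was tested if it reached its array's median on 3 or more of 15 arrays. limma 3.58.1 in R 4.3.3 fitted 1 mean per stage (lmFit, eBayes with intensity trend), with 6 contrasts and an F test. The adjustment was Benjamini-Hochberg over all 25960 probe sets. The script was tested on simulated data. A gene outside the 10 members was measured by its brightest tested probe set.

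The members and lists were chosen with earlier results of these data known. All probe sets of the members are reported. Of the other pathway genes, those called are named, at most 3 per role and direction with the largest change, and a gene not called is named where it is a paralogue of a member or an example chosen after its values were seen. The number of arrays limits precision, and the p-values weigh stage differences against the spread between these samples. Replicate numbers are not shared between stages, and the labels give no batch. Alternatives changed the added constant, the filter, the probe set per gene, the normalization, the variance model, the weights and the arrays used. The newborn pool entered no comparison. Promoter windows come from the RefSeq table of GRCm38.p6, and motifs were searched with Python 3.11.15.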

Additional observations from a re-analysis of the deposited data

How the results depend on the processing

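No paired analysis was possible because the replicate numbers are not shared between stages. No direction reversed among the calls of the members and of the other pathway genes. Differences that were not called could turn, as that of Dll4 from gd18 to pnd2 did without pnd2 replicate 3. Of the 10 calls of Notch probe sets in comparisons and the F test, 4 (all Hey1) held in every alternative, and of the 29 calls of other pathway genes 12 did. The Notch count for gd14 against gd12 was 2, and 4 without pnd2 replicate 3 and 4 without 3 arrays (that one, gd14 replicate 10 and gd16 replicate 9). That for gd18 against gd12 was 2, but 1 with median centring, 4 in a fit to the 6 arrays compared, and 5 in both fits with arrays omitted. That for pnd2 against gd12 was 2 and 1 in the 6-array fit, that for pnd2 against gd18 was 0 and 1 with array weights, and that of the F test was 4 and 2 without the filter, 2 with median centring and 2 without the intensity trend. Leaving out each array in turn gave 1 to 4 for gd14 against gd12, 1 to 5 for gd18 against gd12, 1 to 3 for pnd2 against gd12, 1 to 5 for the F test, and 0 to 0 for the other 3 steps. Except for fewer arrays or features by construction, the cause was not tested.

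Counts over all probe sets moved more. Without pnd2 replicate 3 they went from 2265 to 6191 (gd14 against gd12), 16 to 190 (gd16 against gd14), 37 to 262 (gd18 against gd16), 145 to 454 (pnd2 against gd18), 4294 to 8641 (gd18 against gd12) and 5442 to 10038 (F test), and with array weights to 5900, 471, 440, 864, 7769 and 9366. The 6-array fits gave 5053, 383, 281, 0, 7103 and, for pnd2 against gd12, 1456 in place of 5478. For pnd2 against gd18 median centring gave 71 and no filter 65. A constant of 64 gave 236 in that step and a constant of 1 gave 18 for gd18 against gd16. Quantile normalization gave 28 for gd16 against gd14 and 56 for gd18 against gd16, and the fit without the intensity trend gave 27 for gd16 against gd14. Without the 3 arrays the counts were 4470, 35, 50, 223 and 8100 for the 4 consecutive steps and gd18 against gd12. With 1 probe set for each of 12231 genes there were 72 calls for pnd2 against gd18, 2804 for gd18 against gd12, 3357 for pnd2 against gd12 and 3235 in the F test. Leaving out each array in turn gave 1313 to 6191, 6 to 190, 7 to 262, 3 to 820, 2915 to 8641, 3824 to 7295 and 3752 to 10038, in the order of the 4 steps, gd18 and pnd2 against gd12, and the F test. The share of calls that were higher in that step was 30.3%, and 59.2% with median centring. For pnd2 against gd12 it was 48.7% and 58.7%. For gd16 against gd14 it was 50% and 67.9% with quantile normalization, and for gd18 against gd16 it was 67.6% and 55.6% with 1 as the constant. The median of all probe sets was shifted by -0.16 between gd18 and pnd2 and by -0.14 between gd12 and pnd2, so changes at pnd2 are relative to that. Probe sets near the array median, such as those of Notch4, are limited by signal.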

Other observations

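One further array held RNA of a pool of 8 whole newborns of both sexes at postnatal day 0.5, a sample with no replicate and no strain label, and it belongs to no stage of the epididymis. On it 5 of the 13 tested Notch probe sets lay above all 15 epididymis arrays, 3 lay below all of them and 5 lay within their range, where the shares over all tested probe sets were 14.8%, 22.1% and 63.1%. Above were both Notch1 probe sets (1776 and 238), Jag2 (427, against at most 330 in the epididymis), Dll1 (276, against at most 248) and Hes1 (898, against at most 815). Below were Notch2 (2425, against at least 4059 in the epididymis), Notch4 (52.3, against at least 61.7) and Jag1 1434070_at (506, against at least 634). Hey1, at 637, lay within the range of the gd14 arrays. Nrarp measured 1537, above its highest epididymis array of 1071.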
